A study of Mus musculus with 8 samples.

Results

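The nuclear genes for the subunits of the mitochondrial respiratory chain were followed complex by complex through RNA-seq and ribosome profiling libraries of mouse pancreatic tumour cells. Members were the protein-coding genes whose mouse symbol begins with Ndufa, Ndufb, Ndufc, Ndufs or Ndufv (complex I, without the Ndufaf assembly factors), Sdha to Sdhd (complex II), Uqcr (complex III), Cox4i, Cox5, Cox6, Cox7 or Cox8 (complex IV) or Atp5 (complex V). The rule found 88 of the 55536 genes in the files, 40 for complex I, 4 for complex II, 8 for complex III, 18 for complex IV and 18 for complex V. The rule reads gene symbols only.

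The cells were KRPC-A cells, a line described by its labels as resembling pancreatic ductal adenocarcinoma and taken from genetically engineered mouse tumours on a C57BL/6 background. Cells in which Gcn2 had been knocked out (KO) and Gcn2 wild-type (WT) cells were each moved for 1 h to medium lacking leucine or to medium with all amino acids (replete). Each of the 4 combinations (KO leucine-free, KO replete, WT leucine-free, WT replete) gave 1 RNA-seq library and 1 ribosome footprint library, so 8 libraries formed 8 groups of 1. How the knockout was made, and whether either line was 1 clone, is not given in the sources used here.

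With 1 library a group there was no replicate spread and no test between conditions. Intervals are 95% intervals for counting error only, and reads amplified by PCR without molecular identifiers are not independent molecules, so the intervals are too narrow even for that. All levels are shares of a library: less RNA of a gene per cell, fewer cells, or more of everything else cannot be told apart in them.

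The respiratory chain sits in the inner mitochondrial membrane. Complex I takes electrons from NADH and complex II from succinate, complex III passes them from ubiquinol to cytochrome c, complex IV hands them to oxygen, and complex V, the ATP synthase, uses the proton gradient that results. A small set of core subunits of complexes I, III, IV and V is encoded in mitochondrial DNA. The others are transcribed in the nucleus, translated in the cytosol and imported. The symbol rule does not match those others exactly: it leaves out Cyc1 of complex III and takes in Atp5s, which is not a subunit of the enzyme. Gcn2, encoded by Eif2ak4, is the kinase that senses uncharged tRNA when an amino acid runs short and phosphorylates the initiation factor eIF2. Many respiratory genes have promoters with sites for NRF1, ETS-family factors or YY1, and some of their messages have a very short 5' leader with the TISU element, in which the YY1 core surrounds the start codon.

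The promoters of 71 members were in the RefSeq promoter table of build GRCm38.p6, as 76 windows of 250 bases before to 50 after an annotated start. The NRF1 core GCGCATGC was present on either strand in 10 windows (13.2%), against 2.71% of all 32851 windows, and its members were Ndufa6, Ndufa8, Ndufa11, Sdhb, Uqcr11, Uqcrc1, Cox6a1, Atp5g2, Atp5k and Atp5l. The TISU and YY1 core AAGATGGCG was present in 7 windows (9.21%, against 1.4% of all windows), those of Ndufa9, Ndufc1, Ndufs4, Ndufs6, Ndufs7, Atp5j and Atp5j2. The ETS core CCGGAAGT was present in 5 windows (6.58%, against 3.89%), those of Ndufs3, Uqcr11, Uqcrh, Cox8a and Atp5h. A C at the annotated start followed by at least 4 pyrimidines, the letters that open terminal oligopyrimidine messages, stood in 4 windows (5.26%, against 2.51%), those of Ndufb11, Uqcrfs1, Atp5d and Atp5g2. Each motif is a match of letters, not a shown binding site.

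Stretches of 3 of these promoters from RefSeq show the motifs in place, in capitals. Ndufa6 (chr15:82354262-82354441, minus strand) is shown because its footprints were the most frequent relative to its RNA among measured members in 3 of the 4 conditions. Uqcr11 (chr10:80406792-80406971, minus strand) holds an ETS core and an NRF1 core, and Ndufc1 (chr3:51408906-51409105, minus strand) holds the TISU core downstream of its annotated start. Each begins 150 bases before the start.
Ndufa6: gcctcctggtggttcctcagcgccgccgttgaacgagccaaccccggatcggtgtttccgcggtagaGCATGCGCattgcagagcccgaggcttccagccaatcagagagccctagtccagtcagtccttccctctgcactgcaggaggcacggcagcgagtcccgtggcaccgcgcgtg
Uqcr11: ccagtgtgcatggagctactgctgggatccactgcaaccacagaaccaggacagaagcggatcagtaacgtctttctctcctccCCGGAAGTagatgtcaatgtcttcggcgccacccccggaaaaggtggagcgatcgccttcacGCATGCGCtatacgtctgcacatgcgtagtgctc
Ndufc1: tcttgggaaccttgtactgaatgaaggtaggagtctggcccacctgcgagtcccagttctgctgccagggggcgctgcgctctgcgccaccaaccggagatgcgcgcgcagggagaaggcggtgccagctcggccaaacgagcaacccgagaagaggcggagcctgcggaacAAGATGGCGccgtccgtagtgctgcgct
The NRF1 core lies on the opposite strand in Ndufa6, from base -83, and in Uqcr11, from base -4, and the ETS core of Uqcr11 starts at -66. In Ndufc1 the TISU core starts at base 23 of the transcript. The 3 genes differed in the leucine comparison: the log2 ratio of RNA, leucine-free over replete, was -1.20 in KO and 0.89 in WT cells for Ndufa6, 0.05 and -0.03 for Uqcr11, and 0.88 and 0.47 for Ndufc1.

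Protein-coding reads ran from 31363740 to 41920839 in the RNA-seq libraries and from 2425740 to 9252254 in the footprint libraries, the WT leucine-free footprint library being the shallowest. Values in CPM are counts scaled to protein-coding reads and adjusted by trimmed mean of M-values. The targeted gene, Eif2ak4, had 16.7 CPM of RNA in KO leucine-free and 13.6 in KO replete cells, against 69.7 in WT leucine-free and 85.7 in WT replete cells, and its footprints were 16.2 and 7.26 CPM against 65.2 and 60.2, so reads were fewer in KO cells but not absent. Of 10 duct and epithelial markers, Epcam had no RNA read in any library but had footprints in each footprint library. The summed RNA of the 10 was 1104, 485, 333 and 244 CPM in KO leucine-free, KO replete, WT leucine-free and WT replete cells, so these markers moved with genotype and medium. Their summed footprints in the same order were 872, 691, 421 and 395 CPM. Acinar and immune or endothelial markers summed to under 1 CPM of RNA in every library, and 7 fibroblast markers to between 58.1 and 66.0 CPM, with Thy1 and Lum at 0 in all 4. The part of these differences in the values below was not tested.

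A member was called measured in an assay if its 4 counts there averaged 30 or more. That left 76 of 88 members in RNA, 77 in footprints and 74 in both. The members not measured in either assay were the tissue-restricted isoforms Cox4i2, Cox6a2, Cox6b2, Cox7a1, Cox7b2, Cox8b and Cox8c, and Ndufa4l2 and Ndufb4c. Cox7b2, Cox8b, Cox8c and Ndufb4c had 0 counts in all 8 libraries. Ndufa11, Ndufs5 and Ndufs6 were below the limit in RNA only, and Atp5g2 and Atp5l in footprints only. Reads that mapped to several places or overlapped several genes were not counted, so values of members with near-identical copies elsewhere in the genome or with overlapping neighbours are uncertain. The labels do not state strand, and reads of overlapping genes on opposite strands cannot be told apart. Atp5o shared 47.9% of its exonic bases with other annotated identifiers, including a second identifier of Atp5o itself. The share with other genes was 19.7% for Uqcrc2, 19.5% for Ndufb9, 12.9% for Ndufb11, 12.8% for Cox5a, 12.7% for Atp5j and 12.7% for Ndufb1. Ndufb6 and Ndufa13 lay between Atp5o and Uqcrc2. Atp5l, a subunit of the membrane part of ATP synthase, had between 444 and 519 RNA reads but 4, 3, 1 and 0 footprints in KO leucine-free, KO replete, WT leucine-free and WT replete cells. Ndufs5, a complex I accessory subunit, had the opposite: 4, 0, 8 and 9 RNA reads and 22, 51, 18 and 87 footprints.

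Respiratory subunits took a small part of the RNA and a larger part of the footprints. Together the 88 members held 0.586% of protein-coding RNA reads in KO leucine-free cells, 0.557% in KO replete, 0.638% in WT leucine-free and 0.544% in WT replete cells. Their footprint shares in the same order were 1.73%, 1.94%, 1.81% and 2.03%. No exact binomial interval of these shares, or of the share of a complex, was wider than 0.034 percentage points, which does not include differences between cultures. Complex V held the largest share in each library, and Atp5b, the catalytic beta subunit, alone supplied 37.8% to 42.1% of complex V RNA reads and 34.3% to 38.8% of its footprints.

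In both genotypes the footprint share of each of the 5 complexes was lower in leucine-free than in replete medium, and the RNA share higher, though not each difference exceeded counting error. Complex V took 0.780% of footprints in KO leucine-free and 0.930% in KO replete cells, and 0.847% in WT leucine-free and 0.978% in WT replete cells. Complex I took 0.497% and 0.525% in KO cells and 0.489% and 0.539% in WT cells. Complex IV took 0.209% and 0.216% in KO cells and 0.223% and 0.245% in WT cells, and complex III 0.151% and 0.157%, and 0.147% and 0.162%. The intervals of complexes III and IV overlapped in KO cells. Complex II took 0.0930% and 0.113% in KO cells and 0.105% and 0.108% in WT cells, where the WT intervals overlapped. In RNA, complex V took 0.296% in KO leucine-free, 0.286% in KO replete, 0.345% in WT leucine-free and 0.301% in WT replete cells. The RNA share of complex IV in KO cells, 0.0429% in leucine-free and 0.0428% in replete medium, differed by less than its counting error.

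**Figure D1:**
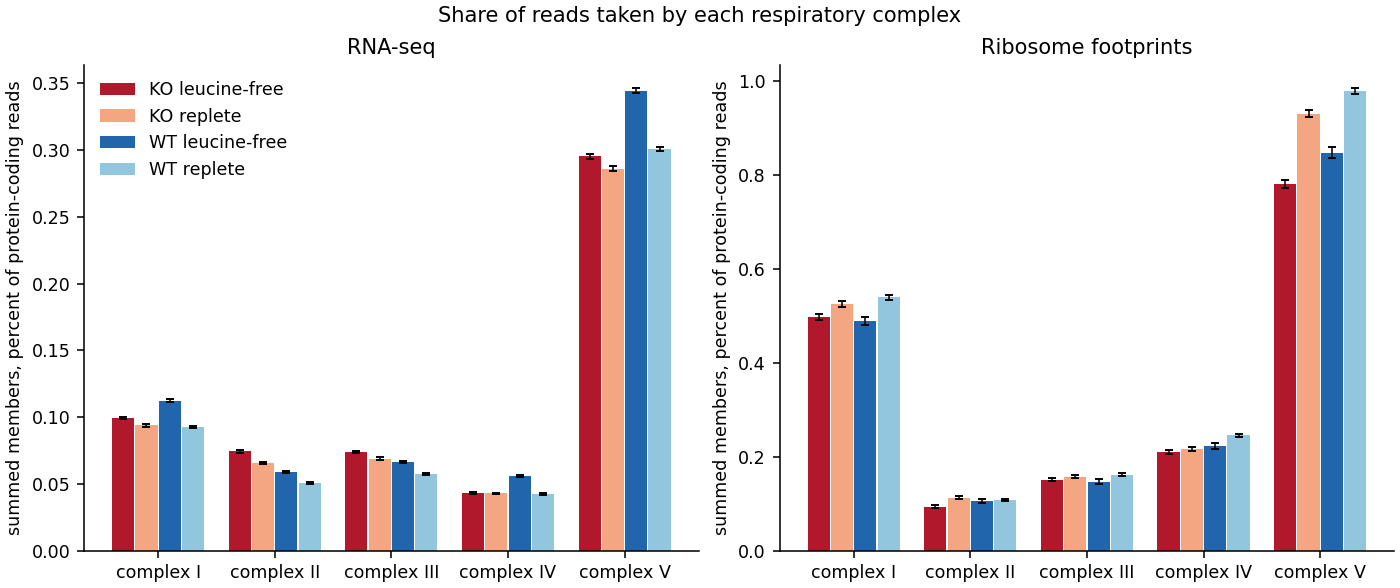
Bars show the percent of protein-coding reads taken by the summed members of each respiratory complex in each library, RNA-seq left and ribosome footprints right, with exact binomial 95% intervals for counting error. Complex V is the tallest in every library, at 0.780% to 0.978% of footprints, and in each genotype the footprint bars of leucine-free medium are below those of replete medium.

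Levels of different genes were compared per length, as TPM, the share of a library after division by exonic length, averaged over the 4 libraries of an assay. In complex I, Ndufa2, a thioredoxin-fold accessory subunit, had the highest mean in RNA (355 TPM), before Ndufa1, a membrane-arm subunit (332 TPM). The order differed by genotype: Ndufa2 led in KO leucine-free and KO replete cells (449.9 and 441 TPM, against 258 and 269.7 for Ndufa1), and Ndufa1 in WT leucine-free and WT replete cells (429 and 373 TPM, against 309 and 222 for Ndufa2). Ndufa6 had the lowest mean of the measured (3.59 TPM), although Ndufb4 was lower in WT leucine-free cells. In footprints Ndufa2 led in each library (mean 1516 TPM), followed by Ndufc2 (1147 TPM). Ndufab1, the mitochondrial acyl carrier protein, had the lowest mean (6.48 TPM), with Ndufb4 lower in both leucine-free libraries. In complex II the membrane anchor Sdhd led in RNA (722 TPM) and footprints (670 TPM). Second were the flavoprotein Sdha in RNA (391 TPM) and the iron-sulfur subunit Sdhb in footprints (353 TPM), and the other anchor, Sdhc, was lowest in both (53.2 TPM of RNA and 230.5 TPM of footprints). In complex III the core protein Uqcrc2 had 749 TPM of RNA and the Rieske iron-sulfur protein Uqcrfs1 247 TPM, with Uqcrq lowest at 6.93 TPM. Uqcrfs1 led complex III in footprints (743 TPM), before Uqcr10 (621.5 TPM), with Uqcrb lowest (73.6 TPM).

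In complex IV, Cox4i1 led in each RNA library (mean 312 TPM), and Cox7b had the next highest mean (226 TPM), though Cox7a2l stood above Cox7b except in WT leucine-free cells. In footprints Cox8a had the highest mean (1530 TPM), before Cox4i1 (1329 TPM), but in WT replete cells Cox4i1 (1345 TPM) and Cox7b (1340 TPM) were above Cox8a (1288 TPM). Cox7c was lowest in both, with 18.6 TPM of RNA and 18.2 TPM of footprints. Ndufa4, counted with complex I by its name but known to bind complex IV, had 204 TPM of RNA and 816 TPM of footprints. The isoforms found in most tissues supplied nearly all complex IV reads: Cox4i1 had 92.6, 91.1, 123 and 109 CPM of RNA in KO leucine-free, KO replete, WT leucine-free and WT replete cells, while Cox4i2, an isoform known from lung and from low oxygen, had 18, 0, 1 and 10 reads. Cox7a1, the heart and muscle isoform, had 0, 0, 9 and 2 RNA reads and 2, 1, 0 and 2 footprints. Its partners Cox7a2 and Cox7a2l had 24.8 to 35.7 and 65.2 to 71.4 CPM of RNA. Cox6a1 had 19.1 to 31.4 CPM of RNA, while Cox6a2, the muscle isoform, had 3 RNA reads in WT replete cells and none in the other RNA libraries. Cox6b1 had 6.13 to 9.21, Cox7b 47.7 to 85.5 and Cox8a 14.0 to 25.6 CPM of RNA, and the testis or muscle isoforms Cox6b2, Cox7b2, Cox8b and Cox8c had no RNA read in any library. Ndufa4l2, a paralog of Ndufa4 known to respond to low oxygen, had 7 RNA reads, all in WT replete cells.

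In complex V, Atp5b had the highest mean in RNA (1317 TPM), followed by the gamma subunit Atp5c1 (1149 TPM), which was above it in KO replete cells (1206 and 1175 TPM), and the c-ring gene Atp5g2 had the least (4.67 TPM). In footprints Atp5b (2564 TPM) was followed by the alpha subunit Atp5a1 (2168 TPM), and the c-ring gene Atp5g1 was lowest of those measured (4.90 TPM). The 3 c-ring genes encode the same mature protein, and Atp5g3 supplied most of its reads: 990, 1306, 1141 and 1456 CPM of footprints in KO leucine-free, KO replete, WT leucine-free and WT replete cells, against 7.88, 4.64, 7.52 and 8.27 CPM for Atp5g1. In RNA, Atp5g3 had 398, 342, 358 and 294 CPM, Atp5g1 17.2, 17.3, 11.6 and 10.7 CPM, and Atp5g2 1.71, 1.31, 2.31 and 1.45 CPM.

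The F1 head of ATP synthase holds alpha and beta in several copies and gamma, delta and epsilon in a single copy each. The mean footprint TPM of Atp5a1 and Atp5b was 2.39, 2.89, 3.22 and 2.67 times that of gamma (Atp5c1) in KO leucine-free, KO replete, WT leucine-free and WT replete cells, and 3.43, 3.01, 3.42 and 2.86 times that of delta (Atp5d). Against epsilon (Atp5e) it was 3.94, 4.60, 8.83 and 7.08 times. The same ratio in RNA was 0.967, 0.786, 0.923 and 1.08 for gamma, 6.34, 8.72, 9.25 and 9.87 for delta, and 4.41, 4.72, 7.73 and 8.22 for epsilon. The ratios of gamma and delta were closer to each other in footprints than in RNA in each library. The ratio of epsilon was higher than both in footprints, and in both assays it was higher in WT than in KO cells. Exonic length includes untranslated bases, so these ratios are not per codon.

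**Figure D2:**
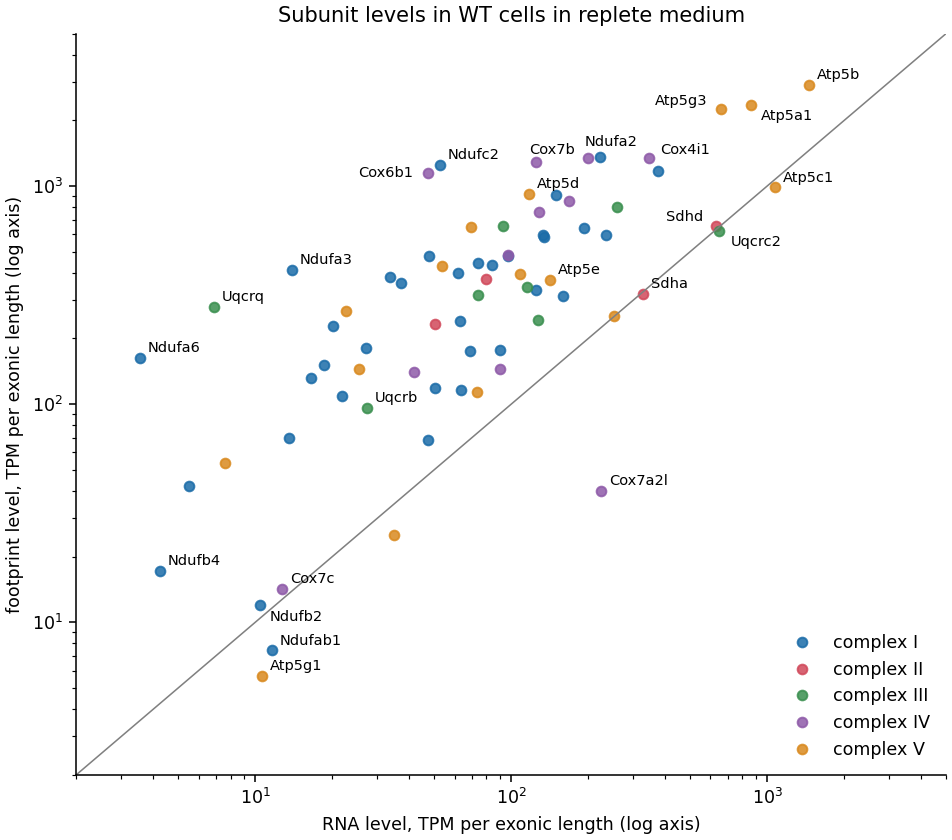
Each point is a subunit measured in both assays in WT replete cells, with RNA level on the horizontal and footprint level on the vertical axis, both in TPM per exonic length on log axes, coloured by complex; the line marks equal values. Most points lie above the line, Ndufa6 (3.54 TPM of RNA and 163 TPM of footprints) farthest, and Cox7a2l (224 and 40.1 TPM) lies farthest below it.

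Footprints over RNA, the log2 ratio of a member's footprint CPM to its RNA CPM (often called translation efficiency), was high for most members. Its median over the 74 members measured in both assays was 2.21 in KO leucine-free, 2.46 in KO replete, 2.13 in WT leucine-free and 2.63 in WT replete cells, against 0.011, 0.042, 0.042 and 0.038 over 9100 genes. Length moved with this level: the median exonic length was 1778 bases in these 74 members and 4818 bases in all such genes. After a local trend on exonic length over all genes was removed, the medians of the members were 0.65, 0.98, 0.80 and 1.05, with 48, 50, 50 and 54 of the 74 above the median of all genes. By complex in WT replete cells, medians were 2.85 for complex I, 1.65 for II, 2.25 for III, 2.85 for IV and 2.14 for V, and with the trend removed 1.39, 1.12, -0.20, 0.79 and 1.42. With the trend removed, the median of complex III was thus below that of all genes (0.049) in WT replete cells. It was also below in KO leucine-free (-0.03 against 0.015), KO replete (-0.13 against 0.044) and WT leucine-free cells (-0.35 against 0.065). In each condition 3 of its 8 members were above the median of all genes.

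Ndufa6, which carries the LYR motif that docks the acyl carrier protein onto complex I, had the highest level of the measured members in KO leucine-free (7.38), KO replete (6.13) and WT replete cells (6.04). Its RNA was low, with 17, 49, 99 and 55 reads in KO leucine-free, KO replete, WT leucine-free and WT replete cells, beside 405, 586, 141 and 788 footprints. Uqcrq followed with 5.85 in WT replete cells, Ndufa3 with 5.42 and Cox6b1 with 5.12. Ndufs6 and Ndufa11, not measured in RNA, had higher values still in WT replete cells, 6.69 (16 RNA reads and 367 footprints) and 6.20 (27 and 437). At the other end stood Cox7a2l, a factor that joins complexes III and IV into supercomplexes, at -2.02, -2.07, -2.99 and -1.95 in KO leucine-free, KO replete, WT leucine-free and WT replete cells. Below 0 in WT replete cells were also Atp5g1 (-0.36) and Ndufab1 (-0.11).

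Loss of leucine was compared with replete medium within each genotype. In KO cells, RNA of the members was slightly higher in leucine-free medium: the median log2 ratio was 0.09 over 76 members, with 49 above 0, against a median of -0.003 over 10817 genes. With the length trend removed it was 0.015. Past 2-fold with an interval that excluded no change was Ndufa6 (0.548 CPM in leucine-free and 1.28 in replete medium, log2 ratio -1.20, interval -2.11 to -0.40). That is 1 of 76 members, beside 3.17% of all genes. Past 1.5-fold were 7 members, 4 higher and 3 lower, beside 8.93% of all genes. Complex II was the complex with all of its members higher, from Sdhb (0.17) to Sdhc (0.28). In complex I the extremes were Ndufb4 (0.95) and Ndufa6, in complex III Uqcrq (0.44) and Uqcrb (-0.67), in complex IV Cox7c (0.76) and Cox7b (-0.17), and in complex V Atp5h (0.65) and Atp5o (-0.58).

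In WT cells, RNA of 70 of the 76 members was higher in leucine-free medium, with a median log2 ratio of 0.29 against 0.005 for all genes. The ratios of short genes were higher than those of long genes in this comparison, and with the length trend removed the median was 0.14, with 58 of 76 above 0. No member passed 2-fold, beside 1.71% of all genes, and 11 passed 1.5-fold, all higher, beside 6.55% of all genes. Complex IV had the highest median (0.46, or 0.27 with the trend removed), all 11 of its measured members being above 0, from Cox7a2l (0.07) to Cox7c (5.79 CPM in leucine-free and 2.95 in replete medium, 0.97). Cox7b, an X-linked subunit, had 85.5 CPM in WT leucine-free and 49.6 in WT replete cells, while KO leucine-free and KO replete cells had 47.7 and 53.8 CPM. In complex I the extremes were Ndufa6 (0.89) and Ndufa3 (-0.47), in complex II Sdhd (0.36) and Sdha (0.11), in complex III Uqcrh (0.50) and Uqcrq (-0.25), and in complex V Atp5g2 (0.67) and Atp5o (-0.06).

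Footprints of most members were lower in leucine-free medium in both genotypes. In KO cells the median log2 ratio over 77 members was -0.17, with 55 below 0, against -0.004 over 9172 genes. In WT cells it was -0.14, with 62 below 0, against 0.008. Removing the length trend left -0.16 and -0.11. The interval lay wholly below 0 for 37 members in KO and 38 in WT cells, and wholly above 0 for 10 and 1. Among all 9172 genes it lay wholly below 0 for 2102 in KO and 1393 in WT cells, and wholly above 0 for 1852 and 1308. Intervals narrow with more reads, so such counts also depend on how many reads a gene has.

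1 member passed 2-fold in each genotype, Ndufb4, a membrane-arm subunit of complex I, beside 2.09% of all genes in KO and 1.46% in WT cells. Its footprints were few: 2.78 CPM (12 reads) in KO leucine-free and 7.42 CPM (48 reads) in KO replete cells, and 3.76 CPM (9 reads) in WT leucine-free and 9.70 CPM (88 reads) in WT replete cells. The log2 ratios were -1.37 (interval -2.46 to -0.48) in KO and -1.30 (-2.54 to -0.38) in WT cells. Past 1.5-fold were 6 members in KO cells, 4 of them lower, beside 11.1% of all genes, and 6 in WT cells, all lower, beside 7.01%. Counted in both directions, the members past these folds were near or below the shares of all genes. Of all 9172 genes, 388 were lower and 632 higher past 1.5-fold in KO cells, and 267 lower and 376 higher in WT cells. In the lower direction alone, the 6 of 77 members in WT cells were more frequent than among all genes. The 4 of 77 in KO cells were near them. For most subunits the lower footprints were a small displacement.

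The complexes were close to each other in WT footprints, with medians of -0.14 for complex I, -0.08 for II, -0.17 for III, -0.19 for IV and -0.16 for V, and all 8 members of complex III below 0. Medians in KO cells were -0.14, -0.28, -0.02, -0.12 and -0.16. Sdha, the succinate-oxidising subunit, had 269 CPM in KO leucine-free and 394 in KO replete cells, but 359 in WT leucine-free and 390 in WT replete cells. Its log2 ratio was -0.55 in KO and -0.12 in WT cells. Atp5b had 2587 and 3200 CPM in KO cells and 3331 and 3630 in WT cells, lower in leucine-free medium in both. The extremes in KO cells were Ndufb1 (0.38) in complex I beside Ndufb4, Sdhd (-0.12) in complex II, Uqcrq (0.20) and Uqcrb (-0.48) in III, Cox7c (0.92) and Cox5a (-0.74) in IV, and Atp5g1 (0.76) and Atp5o (-0.57) in V. In WT cells they were Ndufv3 (0.15) beside Ndufb4, Sdhd (0.12) beside Sdha, Uqcrc1 (-0.03) and Uqcrb (-0.71), Cox8a (0.24) and Cox7a2l (-0.97), and Atp5md (0.15) and Atp5e (-0.47).

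**Figure D3:**
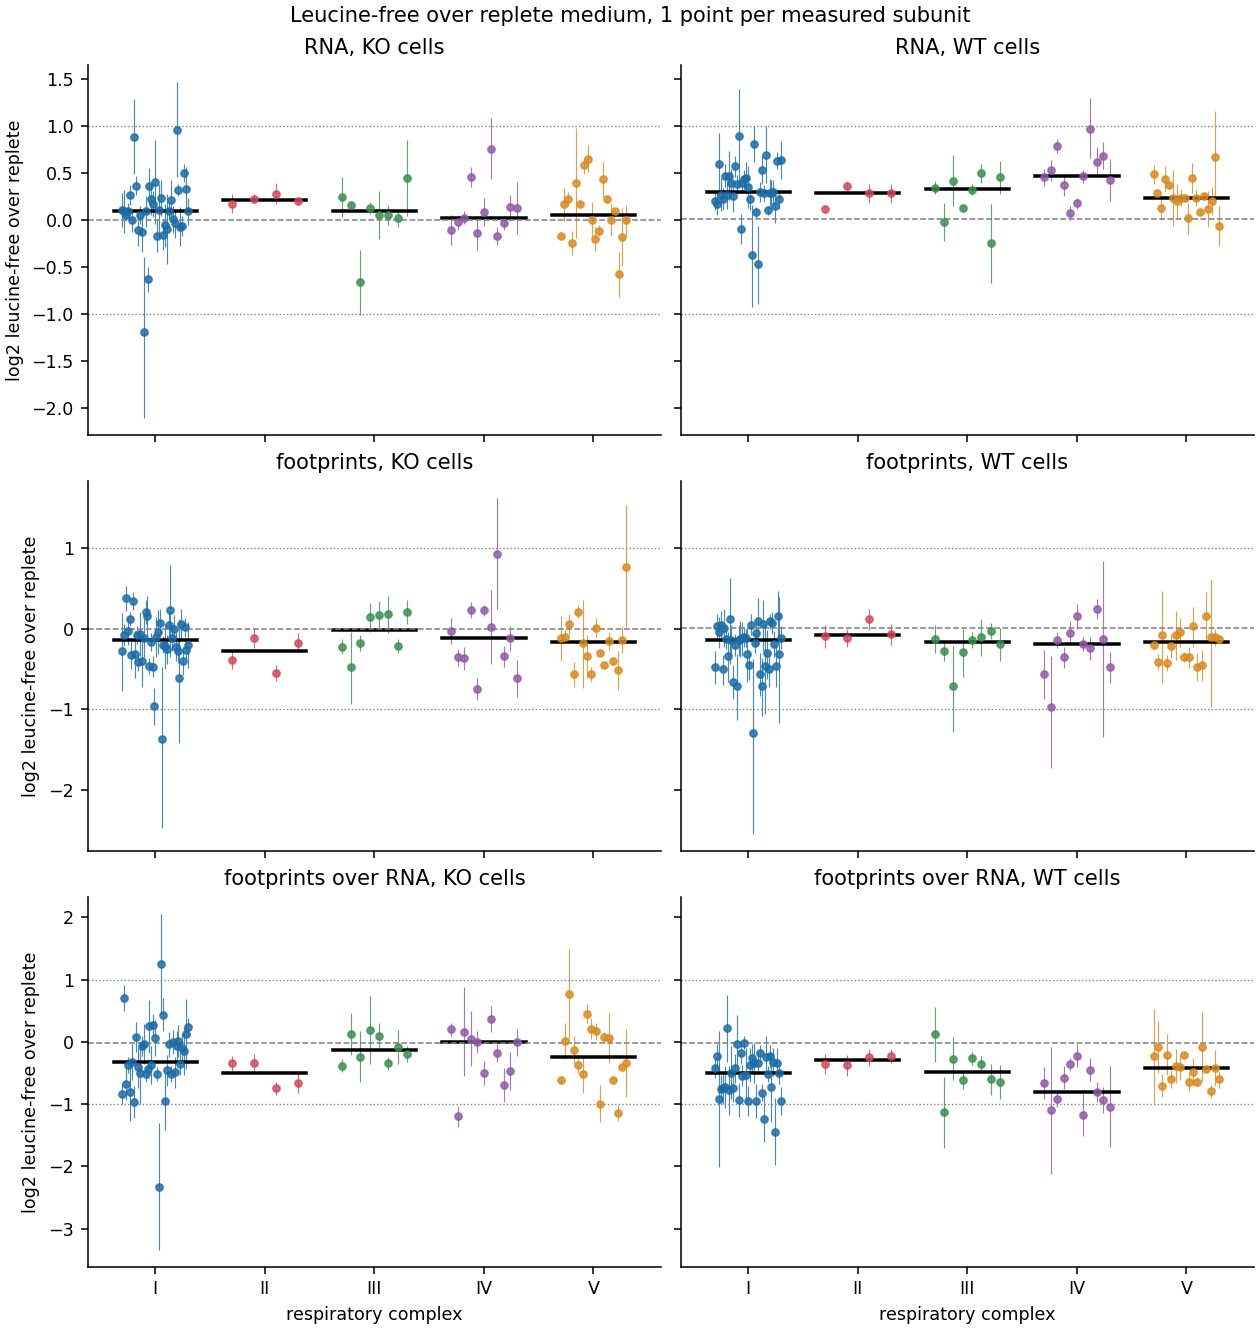
Each point is a measured subunit with its 95% counting interval, placed by complex along the horizontal axis; the vertical axis is the log2 ratio of leucine-free over replete medium in RNA, footprints and footprints over RNA, KO cells left and WT cells right. Black bars are medians of a complex, the dashed line is the median of all genes and dotted lines mark 2-fold; in the lower right panel nearly all points are below 0 (72 of 74).

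Footprints over RNA combine these values and share their reads with both. In KO cells the median log2 change in leucine-free medium was -0.22 over 74 members, with 50 below 0, against -0.016 over 9100 genes, and -0.15 with the length trend removed. In WT cells it was -0.49, with 72 of 74 below 0, against -0.014. With the length trend removed it was -0.23, with 59 below 0, so a part of the WT value moved with length. In KO cells 4 members passed 2-fold, beside 2.99% of all genes, and 17 passed 1.5-fold, 14 of them lower, beside 15.9%. In WT cells 6 passed 2-fold, all lower, beside 2.93%, and 30 passed 1.5-fold, all lower, beside 15% of all genes. With the trend removed, Ndufa6 alone passed 2-fold in WT cells.

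The 6 in WT cells were Ndufa6 (-1.44, interval -1.98 to -0.90), Ndufb9 (-1.24), Cox5b (-1.17), Uqcrb (-1.13), Cox7c (-1.10, interval -2.12 to -0.08) and Cox7a2l (-1.04). Ndufb9, a second LYR-motif subunit of complex I, had 32.6 CPM of footprints in WT leucine-free and 53.6 in WT replete cells, with 21.0 and 14.5 CPM of RNA. Cox5b, a zinc-binding subunit of complex IV, had 44.3 and 65.5 CPM of footprints with 20.8 and 13.6 CPM of RNA. In both genes the footprints were fewer and the RNA higher in leucine-free medium. The footprints of Uqcrb (36 and 226 reads), Cox7a2l (21 and 159) and Cox7c (10 and 43) were few, and their intervals were correspondingly wide.

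The 4 in KO cells were Ndufb4 (-2.32, interval -3.34 to -1.30), Cox5a (-1.20, -1.37 to -1.03), Atp5d (-1.14, -1.27 to -1.01) and, higher, Ndufa6 (1.25, 0.44 to 2.06). Cox5a, a matrix-side subunit of complex IV, had 143 CPM of footprints in KO leucine-free and 240 in KO replete cells, with 49.4 and 36.0 CPM of RNA. In WT cells it had 234 and 299 CPM of footprints with 57.1 and 41.6 CPM of RNA, lower as well (-0.81). Atp5d had 318 and 469.9 CPM of footprints with 67.4 and 45.0 CPM of RNA in KO cells, and 394 and 524 CPM with 54.7 and 46.5 CPM in WT cells (-0.65).

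By complex, the median change in KO cells was -0.33 for complex I, -0.50 for II, -0.14 for III, -0.01 for IV and -0.24 for V. In WT cells it was -0.50, -0.30, -0.48, -0.81 and -0.43, and with the length trend removed -0.23, -0.19, -0.22, -0.59 and -0.28. Complex IV was the lowest in WT cells, all 11 measured members below 0 from Cox6a1 (-0.22) to Cox5b, and the highest in KO cells, from Cox8a (0.37) to Cox5a. The other extremes in WT cells were Ndufab1 (0.22) in complex I, Sdha (-0.23) and Sdhc (-0.38) in II, Uqcrq (0.12) in III, and Atp5md (-0.08) and Atp5c1 (-0.80) in V. In KO cells they were Sdhd (-0.34) and Sdha (-0.74), Uqcrb (0.19) and Uqcrc2 (-0.38), and Atp5g1 (0.77) beside Atp5d.

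The difference of the responses, KO minus WT, was taken from all libraries of an assay. In RNA its median was -0.21 over 76 members, 59 of them below 0, against 0.005 for all genes, and -0.08 with the length trend removed. Past 2-fold were Ndufa6 (-2.08, interval -3.00 to -1.16), Uqcrb (-1.08, -1.51 to -0.66) and Ndufb4 (1.33, 0.63 to 2.04), beside 4.67% of all genes. Past 1.5-fold were 13 members, 10 of them lower, beside 12.6% of all genes (700 higher and 665 lower). All 11 members of complex IV were below 0, from Cox5a (-0.001) to Cox7b (-0.96), with a median of -0.39 (-0.16 with the trend removed). The other extremes were Sdha (0.08) and Sdhd (-0.14) in complex II, Uqcrq (0.69) in III, and Atp5h (0.52) and Atp5j (-0.73) in V. Uqcrb, a small ubiquinone-side subunit of complex III, had 3.45 CPM in KO leucine-free and 5.48 in KO replete cells, but 6.55 in WT leucine-free and 4.90 in WT replete cells.

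In footprints the difference had a median of 0.02 over 77 members, 39 above and 38 below 0, against -0.023 for all genes, and -0.06 with the length trend removed. No member passed 2-fold, beside 4.6% of all genes, and 3 passed 1.5-fold, all higher, beside 15.2%. Complex II had the lowest median (-0.26), its 4 members all below 0 from Sdhb (-0.10) to Sdha (-0.43), and complex III the highest (0.24), from Uqcrc1 (-0.19) to Uqcr11 (0.47). The other extremes were Ndufa6 (0.61) and Ndufs1 (-0.55) in complex I, Cox7c (1.05) and Cox5a (-0.39) in IV, and Atp5g1 (0.87) and Atp5k (-0.55) in V. Ndufs1, which carries iron-sulfur clusters of the NADH-oxidising arm, had 301 CPM in KO leucine-free and 415 in KO replete cells, against 448 and 421 in WT cells.

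In footprints over RNA the median difference was 0.26 over 74 members, 50 above 0, against -0.004, but 0.06, with 39 of 74 above 0, once the length trend was removed. 7 members passed 2-fold, all higher, beside 7.81% of all genes, and 23 passed 1.5-fold, 21 of them higher, beside 21.8%. The 6 of largest size were Ndufa6 (2.69, interval 1.72 to 3.66), Ndufb1 (1.39, 1.01 to 1.77), Uqcrb (1.32, 0.53 to 2.11), Ndufb9 (1.30, 0.83 to 1.77), Cox7c (1.26, 0.02 to 2.51) and Cox7a2l (1.10, 0.30 to 1.89). The seventh was Atp5j, coupling factor 6 of the ATP synthase stalk (1.05, 0.84 to 1.25). Ndufb1, a short membrane-arm subunit, had 154 CPM of footprints in KO leucine-free and 119 in KO replete cells with 9.25 and 9.66 CPM of RNA. In WT cells its footprints were 110 and 122 CPM with 15.4 and 8.80 CPM of RNA. In 7 of 7, the WT value was below 0 with an interval that excluded 0, as it was in 63 of all 74 members. The WT value enters the difference with a minus sign, so the 7 were in part chosen by it. The KO value was above 0 beyond counting error for Ndufa6, Ndufb1 and Atp5j, and its interval included 0 for Uqcrb, Ndufb9, Cox7c and Cox7a2l. With the length trend removed, Uqcrb, Cox7c, Atp5j and Cox7a2l lay below 2-fold, between 0.88 and 0.99, and 6 members passed, 3 of them among these 7.

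Complex II ran the other way in footprints over RNA, with a median difference of -0.19 (-0.35 with the trend removed) from Sdhb (0.007) to Sdha (-0.52), while complexes I, III, IV and V had medians of 0.23, 0.41, 0.56 and 0.24, or 0.07, 0.06, 0.36 and 0.10 with the trend removed. Ndufb4 (-1.41) was lowest in complex I, Uqcrq (-0.36) in III, Cox5a (-0.39) in IV and Atp5h (-0.79) in V.

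**Figure D4:**
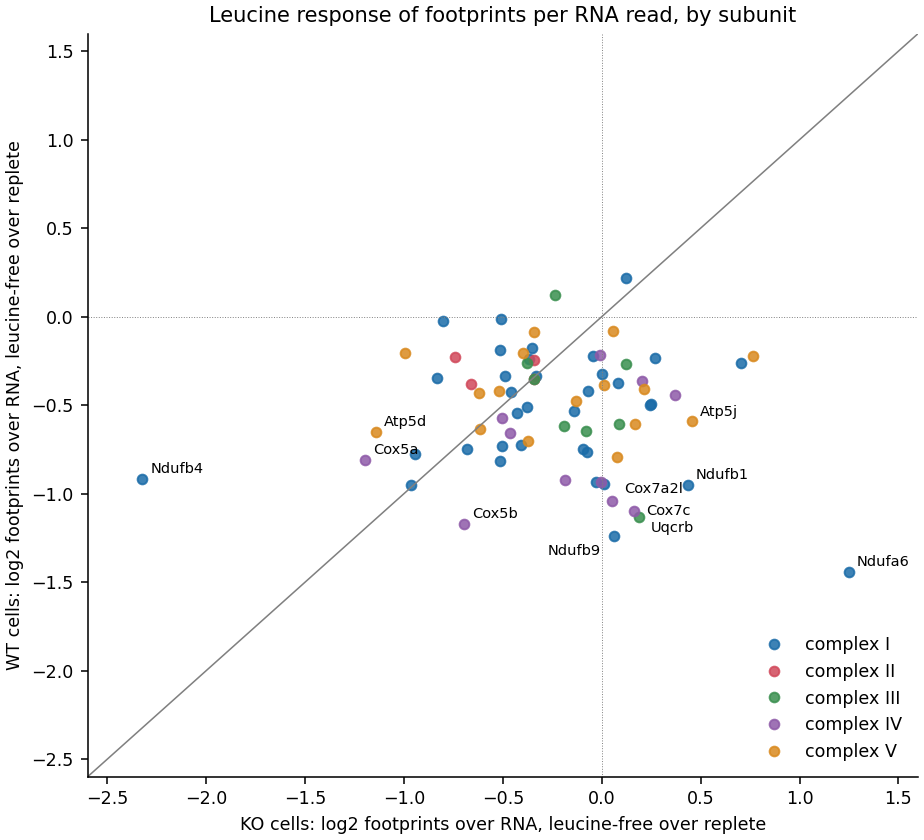
Each point is a subunit measured in both assays; the horizontal axis is the log2 change of footprints over RNA in leucine-free over replete medium in KO cells and the vertical axis the same in WT cells, coloured by complex, with a line of equal change. Names mark members past 2-fold in either response or in their difference; Ndufa6 lies at 1.25 in KO and -1.44 in WT cells.

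KO and WT cells were also compared within each medium. RNA of the members had a median log2 ratio, KO over WT, of -0.23 in leucine-free medium, 48 of 76 below 0, against 0.011 for all genes, and 0.03 in replete medium, 33 of 76 below 0, against 0.005. With the length trend removed the medians were -0.20 and -0.05. In leucine-free medium 3 members passed 2-fold, beside 8.39% of all genes. Past 1.5-fold were 15, 12 of them lower in KO cells, beside 21.4% of all genes (1337 higher and 981 lower). In replete medium 3 passed 2-fold, beside 6.85%. Past 1.5-fold were 7, 5 of them higher, beside 18.4% (1177 higher and 809 lower). Members passing 2-fold were therefore no more frequent than other genes. The RNA comparisons in the 2 media share no library with each other, but each shares its libraries with the leucine responses.

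Ndufb11, an X-linked membrane-arm subunit, was past 2-fold in both media, with 10.9 CPM in KO leucine-free and 11.4 in KO replete cells, against 32.3 in WT leucine-free and 23.3 in WT replete cells. The log2 ratios were -1.57 (interval -1.75 to -1.40) and -1.03 (-1.20 to -0.87). Ndufa6 was lower (-2.11) and Ndufb4 higher (1.15) in leucine-free medium, with few reads. In replete medium Ndufc1 was lower (2.32 CPM in KO and 5.05 in WT cells, -1.11) and Ndufa2 higher (54.3 and 26.0 CPM, 1.06). All 4 members of complex II were above 0 in both media, with Sdha highest: 439 and 383 CPM in KO leucine-free and KO replete cells, against 299 and 277 in WT cells (0.55 and 0.47). Sdhc was nearest to 0 (0.008 and 0.013).

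The extremes elsewhere in leucine-free medium were Uqcrq (0.71) and Uqcrb (-0.92) in complex III, Cox7c (0.05) and Cox8a (-0.87) in IV, and Atp5g1 (0.57) and Atp5pb (-0.93) in V. In replete medium they were Uqcrc2 (0.40) and Uqcr11 (-0.43), Cox5b (0.57) and Cox4i1 (-0.26), and Atp5mpl (0.85) and Atp5pb (-0.57). Atp5pb, the b subunit of the ATP synthase stalk, was the lowest of complex V in both media, with 133 and 144 CPM in KO leucine-free and KO replete cells, against 253 and 213 in WT cells.

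Footprints of the members had a median KO over WT ratio of -0.08 in leucine-free medium, 46 of 77 below 0, against -0.009 for all genes. In replete medium it was -0.10, 50 of 77 below 0, against 0.003. Removing the length trend gave medians of -0.10 in leucine-free and -0.06 in replete medium. In leucine-free medium 1 member, Cox7c, passed 2-fold (9.97 CPM in KO and 4.18 in WT cells, 43 and 10 reads, log2 ratio 1.20, interval 0.24 to 2.41), beside 7.23% of all genes, and 8 passed 1.5-fold, beside 21.8%. In replete medium none passed 2-fold, beside 3.03%, and 4 passed 1.5-fold, all lower, beside 11.9%. Counted in both directions, the members past these folds were a smaller share than among all genes. In replete medium 423 of all 9172 genes were lower past 1.5-fold and 665 higher. In the lower direction alone, the 4 of 77 members were thus near the share of all genes. Extremes in leucine-free medium were Ndufb9 (0.82) and Ndufa1 (-0.86) in complex I, Sdhc (-0.12) and Sdha (-0.42) in II, Uqcr11 (0.34) and Uqcrc2 (-0.31) in III, Cox7b (-0.88) in IV, and Atp5e (0.86) and Atp5k (-0.58) in V. In replete medium they were Ndufa7 (0.43) and Ndufb11 (-0.74), Sdhc (0.17) and Sdhb (-0.06), Uqcrc1 (0.11) and Uqcrb (-0.27), Cox5b (0.28) and Cox7b (-0.66), and Atp5e (0.54) and Atp5g1 (-0.82).

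In footprints over RNA, 8 members passed 2-fold in leucine-free medium, 7 of them higher in KO cells, beside 5.95% of all genes, and 20 passed 1.5-fold, 16 of them higher, beside 20.9%. The median was 0.13, against 0.002, and 0.009 with the length trend removed. The 6 of largest size were Ndufa6 (2.78), Ndufb4 (-1.60), Ndufb9 (1.26), Ndufb1 (1.21), Ndufb11 (1.19) and Cox7c (1.15), followed by Atp5j (1.14) and Cox8a (1.07). In replete medium the median was -0.12, against 0.015, and -0.03 with the length trend removed, with 41 of 74 then below 0. Atp5g1 (-1.51), with 30 and 75 footprints, was the 1 member past 2-fold there, beside 1.38% of all genes. There were 10 past 1.5-fold, 9 of them lower, beside 8.6%. Other extremes in leucine-free medium were Sdhc (-0.13) and Sdha (-0.97), Uqcrb (0.89) and Uqcrc2 (-0.74), Cox5a (-0.50), and Atp5d (-0.61). In replete medium they were Ndufc1 (0.75) and Ndufa2 (-0.98), Sdhc (0.16) and Sdha (-0.45), Uqcr11 (0.30) and Uqcrc2 (-0.63), Cox8a (0.26) and Cox7b (-0.78), and Atp5h (0.38).

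Where a member lay in the genome moved with its KO over WT ratio. Genes other than the members had lower KO over WT medians on chromosome X than on any other chromosome: -0.59 in leucine-free and -0.51 in replete medium in footprints, and -0.45 and -0.43 in RNA. Next came chromosome 3, with -0.26 and -0.29 in footprints. The 3 measured members on the X, Ndufa1, Ndufb11 and Cox7b, had footprint ratios between -0.88 and -0.38 in leucine-free and between -0.74 and -0.56 in replete medium. Cox7b had 238 and 304.5 CPM of footprints in KO leucine-free and KO replete cells, against 437 and 481 in WT cells, and Ndufa1 50.3 and 98.1 against 91.5 and 145.

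The 3 members on chromosome 3, Atp5pb, Ndufb5 and Ndufc1, had footprint ratios between -0.39 and -0.12 in leucine-free and between -0.58 and -0.36 in replete medium. Chromosomes 3, 5, 7 and X were the 4 of lowest KO over WT median in both assays and media, so this group rests on the ratios it describes. Its edge was not sharp: in replete footprints the median of other genes was -0.05 on chromosome 7 and -0.04 on chromosome 10. Over chromosomes 3, 5, 7 and X together, 13 of 14 members were below 0 in footprints in each medium, beside 68.1% and 70.6% of the other genes there. On the other chromosomes 33 of 63 members were below 0 in leucine-free and 37 of 63 in replete medium, with medians of -0.02 and -0.04, beside 45.8% and 43.7% of the other genes there, whose medians were 0.05 and 0.04. In RNA the pattern was seen in leucine-free medium, where 12 of 14 members on chromosomes 3, 5, 7 and X were below 0, beside 68.1% of the other genes there. In replete medium 9 of 14 were, beside 70.0%, with Cox7b on the X above 0 (0.12) and a median of -0.22 in members and other genes alike. The cause of the differences between chromosomes was not tested.

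**Figure D5:**
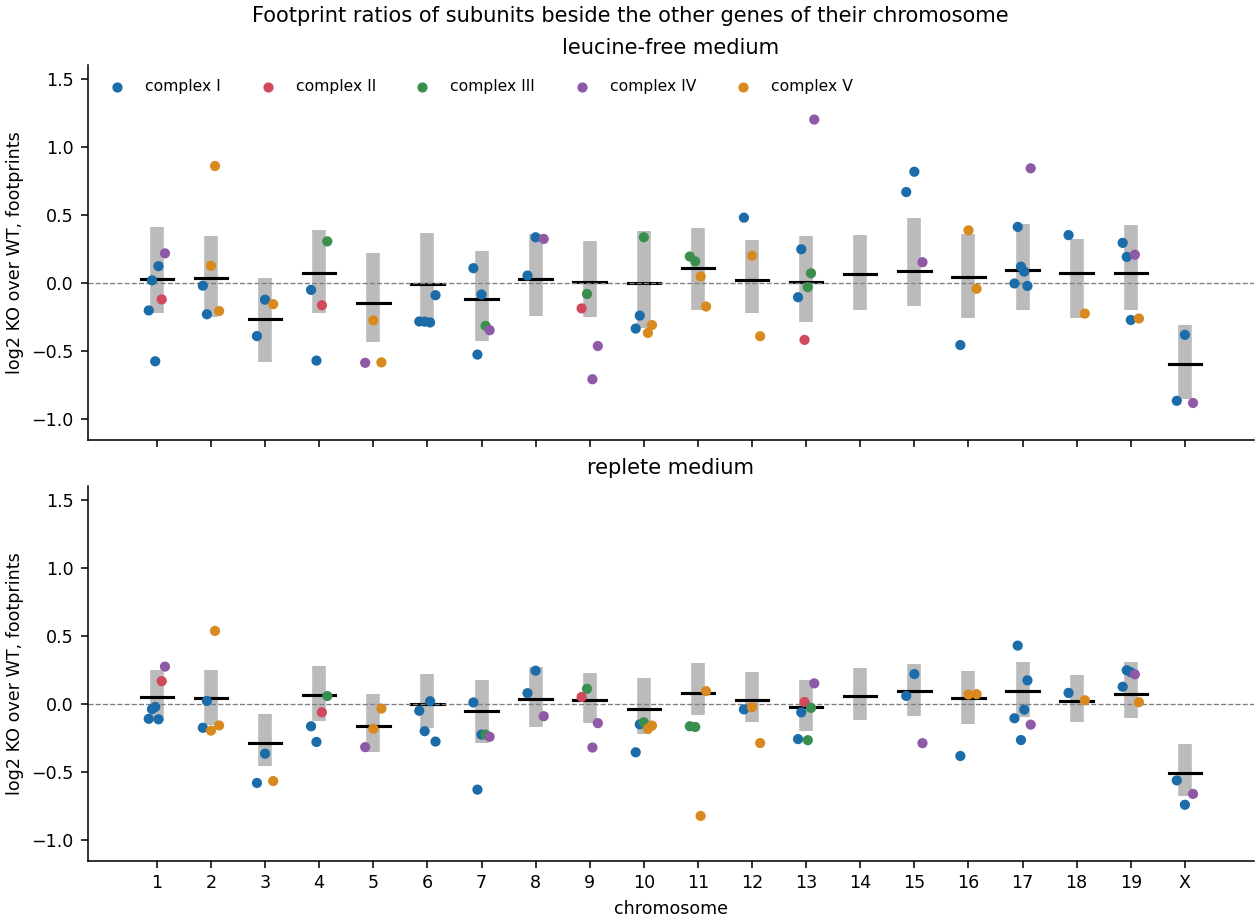
The vertical axis is the log2 ratio of footprints, KO over WT, by chromosome, leucine-free medium above and replete medium below; points are measured subunits coloured by complex, black bars the medians of the other genes of that chromosome and grey bars their middle range from the lower to the upper quartile. The black bars of chromosome X are the lowest, at -0.59 in leucine-free and -0.51 in replete medium, and its 3 subunits lie below 0 in both.

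Other genes of mitochondrial respiration were described from lists. Of 13 subunits encoded in mitochondrial DNA, 7 were measured, and mt-Atp6, mt-Atp8, mt-Co3 and mt-Nd4l were listed at 0 in all 8 libraries. Multiply mapped and overlapping reads were not counted for these genes either, so a count of 0 does not show that a gene was silent. The part of this counting in the zeros was not tested. In RNA the 7 had a median leucine-free over replete ratio of -0.03 in KO and 0.19 in WT cells. In footprints the medians were 0.21, with 6 of 7 above 0, in KO and 0.19, with 5 of 7 above 0, in WT cells, while the nuclear-encoded subunits had -0.17 and -0.14. None of the 7 passed 1.5-fold in a leucine comparison of RNA or footprints. Cytosolic and mitochondrial ribosomes leave footprints in the same library, and how well mitochondrial ribosomes are captured was not tested.

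The 16 enzymes of the citrate cycle and pyruvate dehydrogenase had a median footprint ratio in leucine-free medium of -0.23 in KO cells, 12 below 0, and -0.18 in WT cells, 14 below 0. Of all genes, 50.5% and 48.9% were below 0. Their footprints over RNA were below 0 for 14 of 16 in KO and 16 of 16 in WT cells, beside 51.5% and 51.3% of all genes. The medians of the enzymes were -0.19 and -0.38. The length trend was not removed from these list values. The 19 measured electron carriers, ubiquinone enzymes and inner or outer membrane carriers had footprint medians of -0.30 in KO and -0.25 in WT cells, with Etfb, a subunit of the electron transfer flavoprotein, lowest in KO cells (-1.36), and 2 of them past 2-fold in KO and none in WT cells, beside 2.09% and 1.46% of all genes. The 37 measured assembly factors of the complexes had footprint medians of -0.005 in KO and -0.03 in WT cells, with 19 and 20 below 0 and 1 and 0 past 2-fold, beside the same shares of all genes. Of 12 regulators of respiratory genes, 11 were measured in RNA, none past 1.5-fold in either leucine response, with medians of 0.06 in KO and 0.04 in WT cells. Esrra, an orphan nuclear receptor, was the one of 10 whose footprints passed 1.5-fold, in KO cells (0.71, and -0.54 in WT cells), beside 11.1% of all genes.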

How the data were processed

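RNA-seq and ribosome footprint libraries were made for the same 4 conditions, footprints with ribonuclease I, linker ligation and PCR, per the labels' protocols. The authors deposited whole-number counts per gene for each library, made with featureCounts 1.6.4 over exons of Ensembl release 96 for mouse build GRCm38, per the file headers. Its defaults count without strand and drop multiply mapped reads and reads over several genes. Exonic counts include reads in untranslated regions. The submitters' processing notes also name cutadapt, STAR and Subread.

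Genes were named and classed as protein-coding with the RefSeq tables (55450 of 55536 identifiers had a symbol). Of the members, 4 were joined by a synonym, RefSeq's Ndufb4b had no row here, and a second Atp5o identifier with 0 reads was left out. Counts were divided by protein-coding totals and by trimmed mean of M-values factors (edgeR 4.0.16, R 4.3.3) over genes with a mean count of at least 30. Log2 ratios used a prior count of 0.5. Intervals (95%) were exact conditional binomial for a pair of libraries and Wald on the log2 scale for footprints over RNA and for differences of ratios, computed with scipy 1.17.1 and pandas 2.3.3 in Python 3.11.15. A gene was called past 2-fold or 1.5-fold where the ratio reached that fold and the interval excluded 0. Length trends were local regressions (statsmodels 0.14.6) of the ratio on log exonic length over all measured protein-coding genes. The steps were checked on simulated counts. No test between conditions was made, since each group had 1 library.

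The members, gene lists and tests were chosen with earlier results of these data known. Named were, in each complex, the highest 2 and the lowest member by level and the extremes of each comparison, every member past 2-fold or the 6 of largest size, and pairs of tissue isoforms. The alternatives tried were other scalings (plain totals, DESeq2 1.42.0 size factors), mean count limits of 100, 10 and none, a prior count of 5, the 1.5-fold limit, the length trend, known subunits only, and shares over measured members or without the top member. A further 4, chosen after seeing the data, were factors over all protein-coding genes, Ndufa4 placed in complex IV, leaving out members on chromosomes 3, 5, 7 and X, and the length trend in the level of footprints over RNA.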

Additional observations from a re-analysis of the deposited data

Results flagged for a closer look

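For several subunits the estimated leucine response had one sign in KO cells and the opposite sign in WT cells, with a difference past 2-fold. With 1 library per group the difference between genotypes was not tested. In RNA, the KO minus WT difference was -2.08 for Ndufa6 (-1.20 in KO and 0.89 in WT cells), -1.08 for Uqcrb (-0.67 and 0.42) and 1.33 for Ndufb4 (0.95 and -0.38). In footprints over RNA it was 2.69 for Ndufa6 (1.25 in KO and -1.44 in WT cells), 1.39 for Ndufb1 (0.44 and -0.95), 1.32 for Uqcrb (0.19 and -1.13), 1.30 for Ndufb9 (0.06 and -1.24), 1.26 for Cox7c (0.17 and -1.10), 1.10 for Cox7a2l (0.05 and -1.04) and 1.05 for Atp5j (0.46 and -0.59). The counting interval included 0 for Ndufb4 RNA in WT cells and for the KO values of Uqcrb, Ndufb9, Cox7c and Cox7a2l in footprints over RNA, so an opposite sign is not established for these. Ndufa6 and Uqcrb appear in both measures, which share their RNA reads. Ndufa6 had 17 to 99 RNA reads a library and Ndufb4 52 to 88.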

How the results depend on the processing

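No paired analysis was possible because each group had 1 library, and for the same reason no replicate could be left out. Per-residue footprint levels, and ratios within ATP synthase per coding length, were not run, since no protein table was used here. Numbers below are members past 2-fold. With plain totals, footprints had 1 in KO minus WT, against 0. With DESeq2 size factors this was 1, and WT leucine footprints had 2, against 1. With factors over all protein-coding genes, chosen after seeing the data, these were 1 and 2, and footprints over RNA had 12 in the WT leucine response (against 6), 2 in KO over WT in replete medium (against 1) and 11 in KO minus WT (against 7). With a mean count of at least 100, RNA had 0 in the KO leucine response (against 1), and 1 each in KO over WT in leucine-free medium and in KO minus WT (against 3 each). Footprints then had 0 in both leucine responses and in KO over WT in leucine-free medium (against 1 each), and footprints over RNA 2 in KO and 3 in WT leucine responses (against 4 and 6), 5 and 0 in KO over WT in leucine-free and replete medium (against 8 and 1) and 4 in KO minus WT (against 7). With a limit of 10 or none, KO over WT footprints over RNA in replete medium had 2. With none, RNA had 2 in KO and 2 in WT leucine responses (against 1 and 0), and 5 and 7 in KO over WT in leucine-free and replete medium (against 3 each). A prior count of 5 gave 0 in the KO leucine RNA, WT leucine footprints and KO over WT leucine-free footprints (against 1 each), and 3 in WT leucine footprints over RNA (against 6). Removing the length trend gave 2 in KO leucine footprints (against 1) and 1 in WT leucine footprints over RNA (against 6), left 6 in KO minus WT footprints over RNA (against 7, with 3 in common), and took the medians of the members in WT leucine RNA to 0.14 from 0.29 and in footprints over RNA to -0.23 from -0.49. Without members on chromosomes 3, 5, 7 and X, KO over WT RNA in replete medium had 1, against 3. At 1.5-fold, KO leucine, WT leucine, KO over WT leucine-free, KO over WT replete and KO minus WT had 7, 11, 15, 7 and 13 in RNA, 6, 6, 8, 4 and 3 in footprints and 17, 30, 20, 10 and 23 in footprints over RNA.

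1 complex median changed sign with both values at least 0.05 from 0: KO over WT footprints of complex IV in leucine-free medium, 0.15, became -0.35 with a mean count of at least 100, -0.10 with no limit, -0.10 with known subunits only and -0.063 with Ndufa4 placed in it; each alternative adds or removes members of a small set. Over all alternatives, 139 medians of all measured members stayed between the median lower and upper counting bounds of the members and 2 did not. Such bounds come from intervals of single genes and are wide for a set, so staying inside does not show that a median kept its size. Without the length trend, KO minus WT in footprints over RNA stayed inside at 0.06, from 0.26. Apart from those changes of sign, 11 medians of a complex lay outside such bounds, 10 of them without the length trend. An example was complex III in WT leucine RNA (0.05 from 0.33). Among the changes of sign, the -0.35 of complex IV also lay outside its bounds, -0.12 to 0.35. Of 96 shares of reads, 48 moved, each by leaving out the top member: complex V held 0.183% of KO leucine-free RNA reads without Atp5b, against 0.296%. Counting each member in each comparison and alternative, 271 calls past 2-fold held and 21 did not, with no change of direction. The median of all genes shifted by over 0.1 only with no limit on counts, to 0.16 in WT leucine footprints and to -0.11 in KO over WT leucine-free footprints. Depth limits the WT leucine-free footprint library most, where Ndufb4 had 9, Cox7c 10 and Cox7a2l 21 reads.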
